A study of Homo sapiens with 6 samples.

Results

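The genes described here are 39 interferon-stimulated genes outside the IFIT, OAS and MX families. They comprise the ISG15 conjugation system and the PARP and TRIM proteins that respond to interferon. The IFI and IFITM proteins and a set of single antiviral effectors are also included. They were chosen by gene name from a general list of interferon-stimulated genes, with earlier results of these libraries known, so the treated values below are a description and carry no test. Of the 39 names, 38 were found among the 19491 genes of the deposited tables, and RTP4 was not analysed here.

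PC-3, an established line from a bone metastasis of prostate carcinoma, was cultured for 48 h in serum-containing medium without compound (control), with 1 mM GPNA or with 10 mM BenSer. GPNA is the p-nitroanilide of L-glutamate at its side chain and BenSer is serine carrying a benzyl group, and both are amino acid analogues used to inhibit the glutamine transporter ASCT2. Their doses differ, and all 3 groups come from 1 line, so nothing here separates the compounds from their concentrations or speaks for other prostate cells. Total RNA was sequenced as stranded paired-end libraries.

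Each group is represented by 2 labelled columns of CPM (reads of a gene per 1000000 reads of the library), with totals of 23077986 to 32178154 reads, of which 51.6% to 52.7% fell on listed genes. Within a group the spread between columns was close to that of read counting alone (chi-square divided by its degrees of freedom 1.05 to 1.06 over all genes), so the pair was counted as 1 sample. The labels number the columns as replicates and the study's own tests treated its columns as such. Over all genes with at least 20 reads the spread did exceed counting by a small amount, 1.05 to 1.06 (chi-square test over 15623 to 16498 genes, p from 1.29e-08 to 3.24e-05). But nothing in the labels says that the columns came from separate cultures. Counted as 1 sample per group, the data give no p-value of a treatment here, and every interval below covers counting error only. The epithelial markers KRT8, KRT18, KRT19, CDH1 and EPCAM were all listed, as was VIM, which is not an epithelial marker but was looked for in PC-3 cells. They stood at 87.3 CPM (CDH1) to 669 CPM (KRT19) in the control, and 0 of 6 were called with either compound. None of the 6 leukocyte markers was listed, and of the 4 fibroblast markers COL1A1 was listed, at 5.57 CPM in untreated cells, 3.73 CPM with GPNA and 4.46 CPM with BenSer.

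Interferons act through receptors at the cell surface that activate Janus kinases, which phosphorylate STAT proteins. A complex of STAT proteins with IRF9 binds the interferon-stimulated response element (ISRE) at the start of target genes, while STAT dimers bind the gamma-activated site (GAS). The products block viruses at entry, replication, translation and release, and many of them are also transcribed at a low level without infection in tumour cells.

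The start regions of several of the genes are shown because they hold letters found in 22 of the 32 genes whose start region was searched. Genes without the letters are not shown. All sequences are from RefSeq on build GRCh38.p14, read 5′ to 3′ along the strand of the gene, and capitals mark every match to the ISRE letters GAAANNGAAA on either strand, so that TTTC blocks are matches on the opposite strand. ISG15 (chr1:1013359-1013424, plus strand) encodes the ubiquitin-like modifier of the group, and HERC5 (chr4:88456969-88457079, plus strand) its main ligase. In both, overlapping matches formed a run of 3 blocks.

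ISG15: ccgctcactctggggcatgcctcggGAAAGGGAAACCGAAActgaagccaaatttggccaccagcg
HERC5: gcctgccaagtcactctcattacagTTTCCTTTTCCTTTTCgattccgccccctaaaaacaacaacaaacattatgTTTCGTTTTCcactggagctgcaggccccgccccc

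IFI6 (chr1:27672251-27672373, minus strand) and RSAD2 (chr2:6877607-6877666, plus strand) are shown as genes with large ratios to the control, with 3 matches and with 1 match. IFITM1 (chr11:313975-314044, plus strand) and IFITM3 (chr11:320861-320937, minus strand) are neighbours whose ratios differed although each held 2 matches.

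IFI6: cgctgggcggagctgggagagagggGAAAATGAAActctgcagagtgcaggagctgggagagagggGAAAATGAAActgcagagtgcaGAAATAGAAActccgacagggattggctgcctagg
RSAD2: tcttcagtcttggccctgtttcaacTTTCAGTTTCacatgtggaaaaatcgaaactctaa
IFITM1: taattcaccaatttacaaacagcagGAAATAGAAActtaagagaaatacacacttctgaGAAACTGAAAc
IFITM3: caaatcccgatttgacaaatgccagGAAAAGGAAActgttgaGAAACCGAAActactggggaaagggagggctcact

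BST2 (chr19:17405720-17405785, minus strand) is shown because its level was no higher with BenSer than with GPNA. DTX3L (chr3:122564307-122564342, plus strand) is shown because its single match is also the single match of PARP9, which is transcribed in the opposite direction.

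BST2: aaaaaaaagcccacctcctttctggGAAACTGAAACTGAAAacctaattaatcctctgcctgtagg
DTX3L: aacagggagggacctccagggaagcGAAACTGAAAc

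A start window of 300 bases, from 250 before to 50 after the RefSeq start site, was at hand for 32 of the 38 genes, with none for IFITM2, LAMP3, PARP10, TRIM22, USP18 and ZNFX1. The ISRE letters, searched on both strands, stood in a window of 22 of the 32 genes (68.8%), against 4.38% of all 27305 genes with a window and 3.57% of all 35116 windows. The GAS letters TTCNNNGAA stood in 9 of the 32 (28.1%), against 9.38% of all genes. Of the 10 GAS matches, 4 overlapped an ISRE match.

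Taking 1 window per gene there were 33 ISRE matches, of which 23 lay on the strand of the gene and 10 on the opposite strand. They started at a median of 74 bases before the start site, and 28 of the 33 started within the last 150 bases before it. The others were matches of IFI6, IFI44L and NMI further upstream and both matches of TRIM21, which lay after the start site. ISG15, BST2, HERC5, IFI6, IFI27, IFI44L, IFITM1, IFITM3 and TRIM21 held 2 or more matches.

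**Figure D1:**
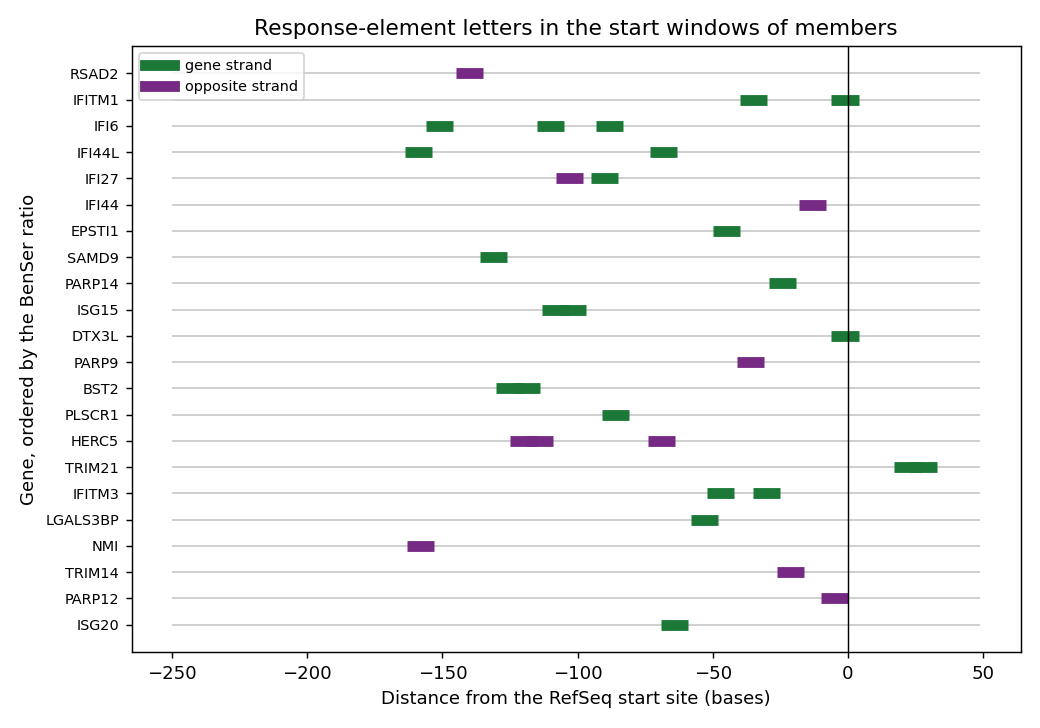
Position of ISRE letters (blocks, gene strand or opposite strand) in the start window of the 22 genes that hold them, in bases from the RefSeq start site (x axis), with genes ordered by the BenSer ratio (y axis) and 1 window per gene. Of the 33 blocks, 28 begin within the last 150 bases before the start site.

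The number of matches and the ratios can be set side by side. The 22 genes with the letters had a median ratio to the control of 2.19 with BenSer and 1.62 with GPNA, and the 10 genes with a window but without the letters had 2.46 and 1.77. The 9 genes with 2 or more matches had a median of 2.26 with BenSer and 1.99 with GPNA, against 2.18 and 1.48 in the 13 genes with 1 match. A match is a description of letters in this window, and its absence says nothing about the binding of a factor. CMPK2 and XAF1, whose BenSer ratios were among the highest of the group, held no match in their windows.

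All 38 genes had higher CPM in both BenSer columns than in both control columns, an order seen in 28.5% of the 18976 genes compared. By the rule of a difference of at least 1.5-fold between the column means on the scale of log2(CPM + 1), 30 of the 38 (78.9%) were called higher with BenSer and 0 lower, against 1.96% called higher and 1.58% called lower of all genes compared. With GPNA, 20 of the 38 (52.6%) were called higher and 0 lower, against 0.34% and 0.0637% of 18828 genes. Both GPNA columns were above both control columns for 37 genes (22.4% of all genes). The shares over all genes depend on the pseudocount, and at 0.1 CPM in place of 1 CPM they were 6.35% called higher with BenSer and 4.67% with GPNA, with 30 and 22 of the 38. The names were picked with these contrasts known, so the shares describe the choice as well as the cells.

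The 20 genes called with GPNA were all called with BenSer, 10 further genes were called with BenSer alone, and 8 with neither. Since both comparisons share the control columns, this is a count and not an independent agreement. All 38 genes passed the filter of a mean of 5 reads in either group. The median difference in log2(CPM + 1) was 1.08 with BenSer and 0.60 with GPNA, whereas the median over all genes compared was -0.028 in both. Summed over the 38 genes, the level was 902 CPM in untreated cells, 1313 CPM with GPNA and 1848 CPM with BenSer. In these bulk libraries a change in the number of cells that express a gene and a change in its RNA per cell cannot be told apart.

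**Figure D2:**
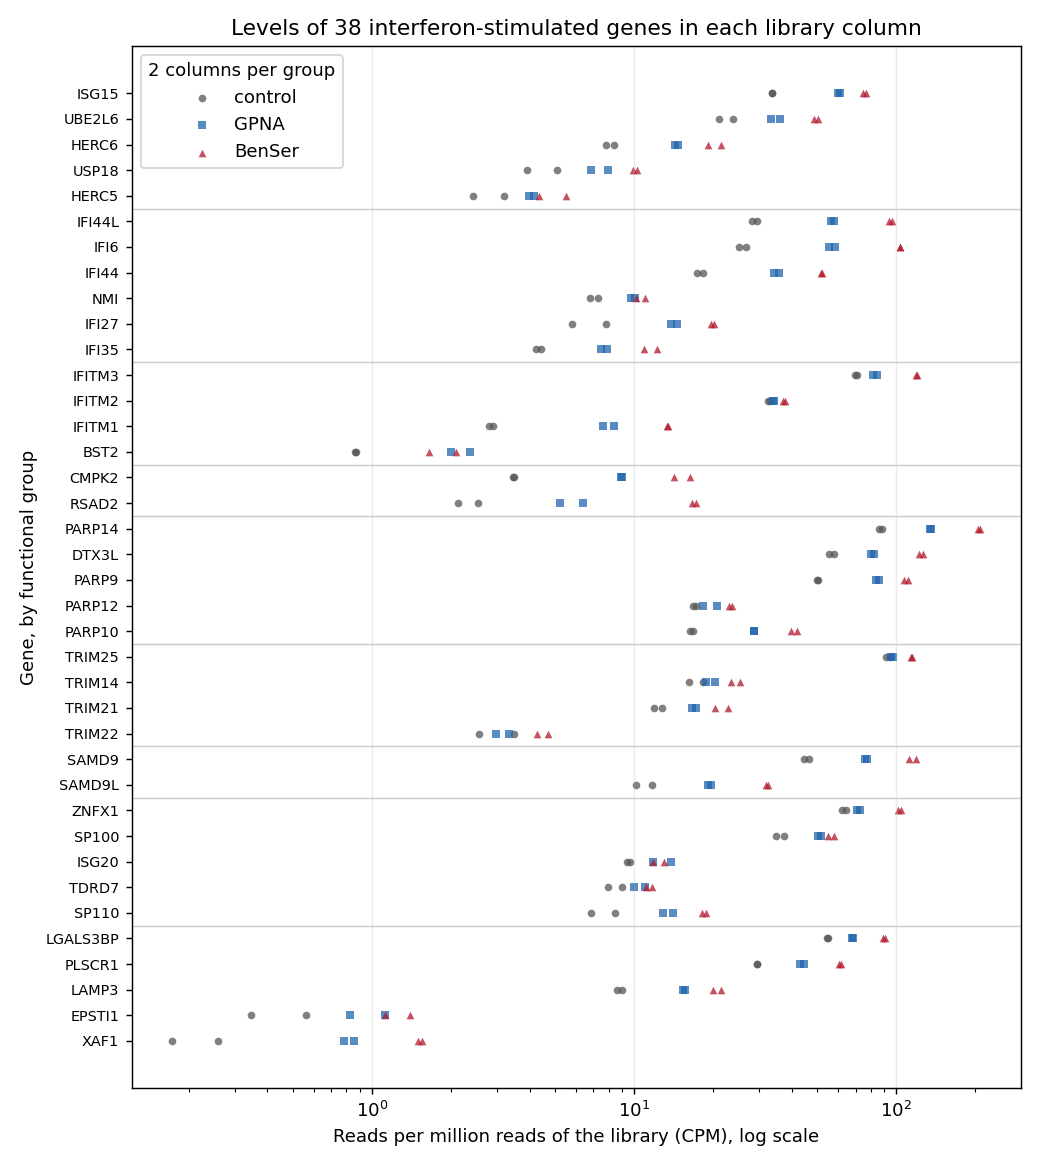
CPM of each of the 38 genes (x axis, log scale) in the 2 columns of control (circles), GPNA (squares) and BenSer (triangles), with genes grouped by role and separated by lines (y axis). The control points lie to the left and the BenSer points to the right for most genes, and the columns of a group lie close together except for genes of few reads such as XAF1 and EPSTI1.

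Ratios of CPM, taken from the merged reads of both columns without a pseudocount, ran from 1.14 (IFITM2) to 7.25 (RSAD2) with BenSer and from 1.04 (TRIM25 and IFITM2) to 3.79 (XAF1) with GPNA. Their medians were 2.22 and 1.67. The 95% counting interval of the BenSer ratio lay above 1 for all 38 genes and below 1 for 0, against 18.2% and 25.8% of all genes compared. That of the GPNA ratio lay above 1 for 35 and below 1 for 0, against 9.78% and 20.1%. The 3 GPNA intervals that included 1 were those of IFITM2, TRIM22 and TRIM25. Near the limit of the 1.5-fold rule, a difference of 0.58, the closest genes with BenSer were BST2 inside (0.62) and NMI outside (0.53), and with GPNA they were UBE2L6 inside (0.60) and XAF1 outside (0.58). XAF1 lay outside with a ratio of 3.79 because it is so low that the pseudocount of 1 CPM outweighs it.

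**Figure D3:**
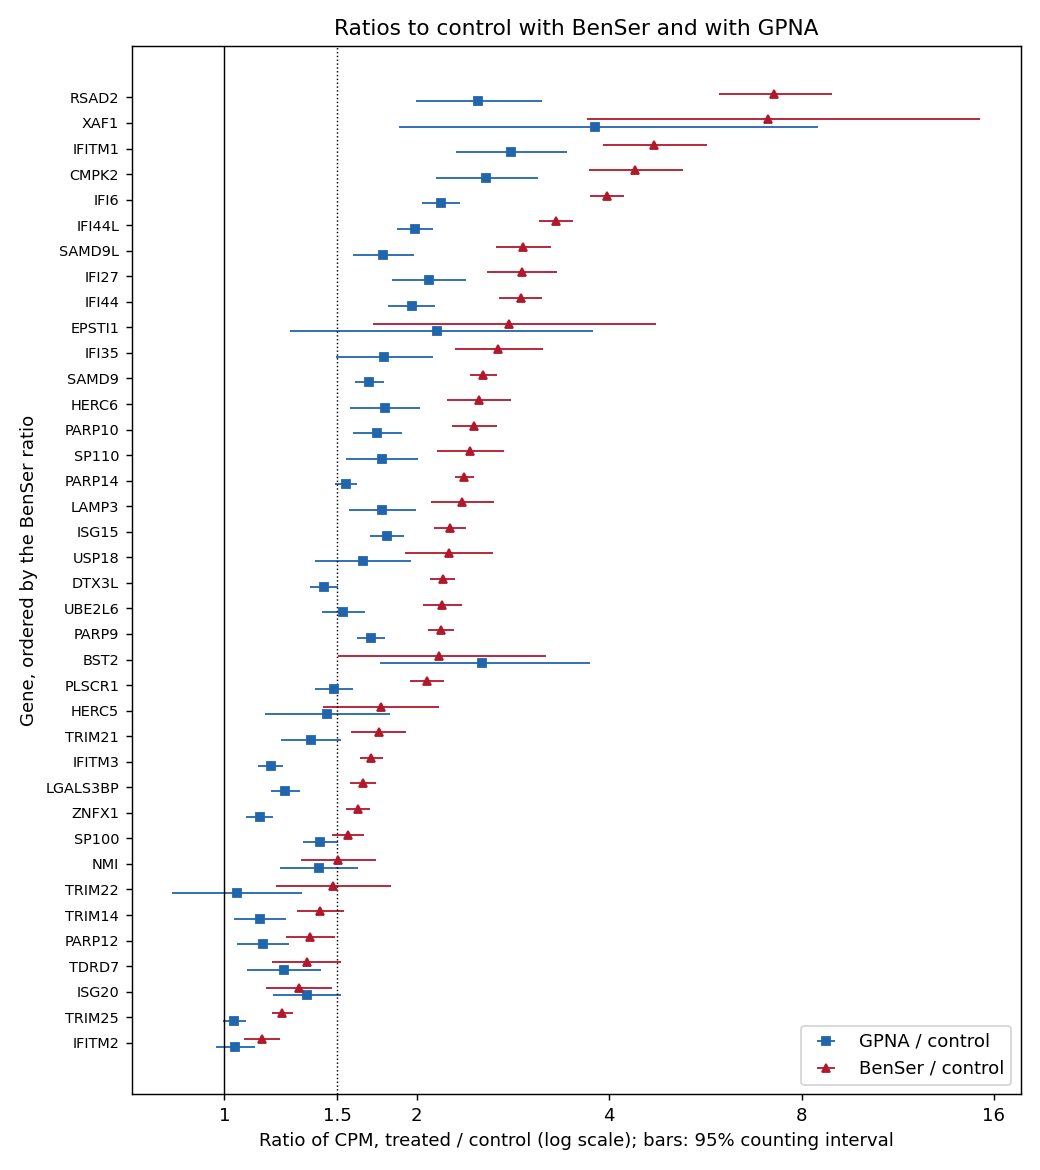
Ratio of CPM to the control (x axis, log scale) with GPNA (squares) and BenSer (triangles) for the 38 genes ordered by the BenSer ratio (y axis). Bars are 95% intervals of counting error, the solid line marks a ratio of 1 and the dotted line 1.5. RSAD2 and XAF1 are at the top with BenSer ratios of 7.25 and 7.08, and IFITM2 at the bottom with 1.14.

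**Figure D4:**
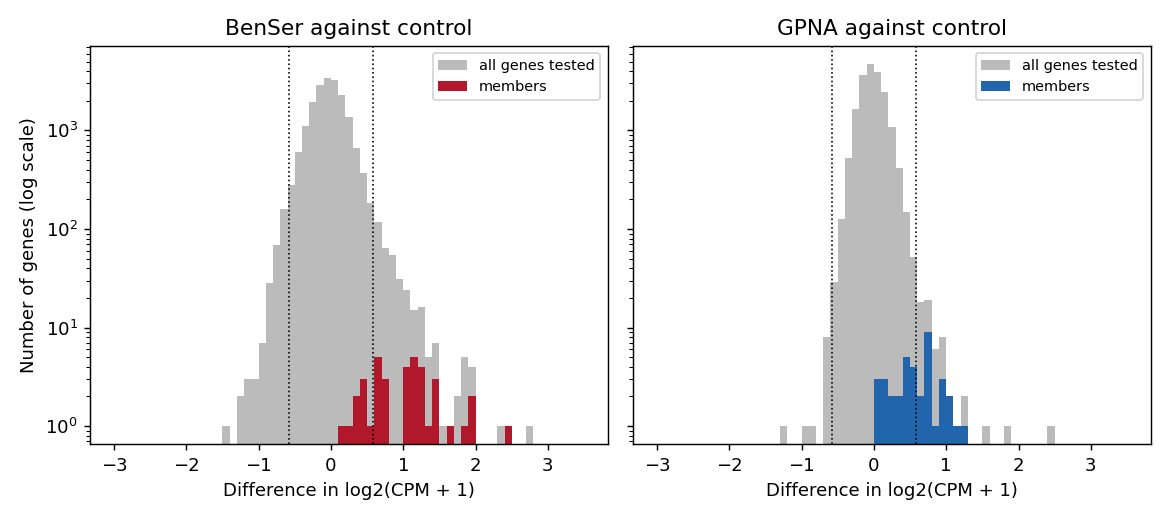
Differences from the control in log2(CPM + 1) (x axis) of all genes compared (grey) and of the 38 genes (coloured), as numbers of genes on a log scale (y axis), for BenSer (left) and GPNA (right). Dotted lines mark the 1.5-fold limits, with 30 of the 38 genes beyond the upper limit for BenSer and 20 for GPNA.

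The ISG15 system attaches the small modifier ISG15 to newly made proteins. The 5 genes of it were all called with BenSer and 4 of them with GPNA, and their summed level went from 71.5 CPM in the control to 120.8 CPM with GPNA and 160.4 CPM with BenSer. ISG15 itself was at 33.7 and 33.5 CPM in untreated cells, 59.7 and 61.0 with GPNA, and 76.6 and 74.9 CPM with BenSer. The groups did not overlap, and the ratios were 1.80 (95% interval 1.69 to 1.91) with GPNA and 2.26 (2.13 to 2.39) with BenSer. UBE2L6, the conjugating enzyme of the system, was at 23.9 and 21.1 CPM in control cells, 35.9 and 33.3 with GPNA, and 48.6 and 50.1 CPM with BenSer. Its columns kept the same order of groups, with ratios of 1.54 and 2.19. Its GPNA call rested on single columns, since the log2 difference of 0.60 became 0.54 without GPNA column 1 and 0.52 without control column 2.

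HERC5, the ligase that joins ISG15 to its targets in human cells, was scarce, at 3.19 and 2.43 CPM in untreated cells, 4.15 and 3.97 with GPNA, and 5.50 and 4.35 CPM with BenSer. The lower BenSer column lay just above the higher GPNA column, and the ratios were 1.45 (1.16 to 1.81) and 1.76 (1.43 to 2.17). The BenSer difference of 0.64 became 0.49 without BenSer column 1 and 0.50 without control column 2, which takes HERC5 below the limit. HERC6, a relative of HERC5 in the same cluster, was at 7.84 and 8.41 CPM in control cells, 14.7 and 14.3 with GPNA, and 21.4 and 19.2 CPM with BenSer. Its ratio of 2.50 with BenSer was the highest of the 5. USP18, which removes ISG15 from proteins and restrains the interferon receptor, was at 3.92 and 5.07 CPM in untreated cells, 6.86 and 7.94 with GPNA, and 10.2 and 9.92 CPM with BenSer. Its ratios were 1.65 and 2.24, and the GPNA difference of 0.61 fell below the limit without GPNA column 2 (0.52) or control column 1 (0.47). USP18 has near copies in the genome, and its count is uncertain to the extent that reads could be assigned to them.

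Beyond the 5 genes, the activating enzyme of the system, UBA7, was at 0.474 and 0.780 CPM in control cells, 1.16 and 1.45 with GPNA and 2.83 and 2.38 CPM with BenSer. The ratio of UBA7 was 4.16 (2.79 to 6.40) with BenSer and 2.09 (1.33 to 3.35) with GPNA. ARIH1, a ubiquitin ligase of the RING-between-RING type on the same list, had ratios of 1.02 and 0.923.

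Of the IFI genes and NMI, 5 of 6 were called with each compound. IFI6, a small membrane protein that protects cells from death and limits flavivirus replication, was at 25.2 and 26.8 CPM in untreated cells, 58.2 and 55.4 with GPNA, and 102.9 and 103 CPM with BenSer. The groups were far apart, with ratios of 2.18 (2.04 to 2.34) and 3.97 (3.73 to 4.22), and by log2 difference IFI6 ranked 5 among all genes compared with BenSer and 7 with GPNA. IFI27, a related small hydrophobic protein, was at 5.81 and 7.80 CPM in control cells, 13.8 and 14.6 with GPNA, and 19.6 and 20.1 CPM with BenSer. Its ratios of 2.09 and 2.92 kept the order of IFI6.

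The adjacent genes IFI44L and IFI44 lie 3650 bases apart on chromosome 1 in the same direction and encode related cytoplasmic proteins. IFI44L was at 28.1 and 29.4 CPM in untreated cells, 58.0 and 56.2 with GPNA, and 96.0 and 93.6 CPM with BenSer. IFI44 was at 18.3 and 17.3 CPM in control cells, 34.2 and 35.7 with GPNA, and 51.7 and 51.9 CPM with BenSer. The neighbours had like GPNA ratios, 1.99 and 1.96, and BenSer ratios of 3.30 (3.11 to 3.51) and 2.91 (2.69 to 3.14). IFI35 and NMI encode partner proteins that bind each other. IFI35 was at 4.22 and 4.42 CPM in untreated cells, 7.91 and 7.46 with GPNA, and 12.3 and 10.9 CPM with BenSer, with ratios of 1.78 and 2.68. NMI was at 6.80 and 7.28 CPM in control cells, 10.0 and 9.74 with GPNA, and 11 and 10.2 CPM with BenSer, and its ratios of 1.41 and 1.51 were lower than those of its partner.

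The IFITM proteins sit in membranes and hinder the fusion of enveloped viruses. Their 3 genes lie side by side on chromosome 11, 643 and 4403 bases apart, and differed widely in ratio. IFITM1 was at 2.80 and 2.90 CPM in untreated cells, 7.60 and 8.41 with GPNA, and 13.4 and 13.4 CPM with BenSer. IFITM2, its neighbour, was at 33.0 and 32.3 CPM in control cells, 33.9 and 34.1 with GPNA, and 37.1 and 37.7 CPM with BenSer. IFITM3 was at 70.8 and 69.5 CPM in untreated cells, 81.6 and 84.2 with GPNA, and 118.5 and 119.6 CPM with BenSer. The columns of each group lay apart from those of the others for these 3 genes. For 1 pair of groups such an upward order was seen in 22.4% to 31.7% of all genes compared. The share for all 3 groups at once was not computed. The BenSer ratio was 4.70 (3.91 to 5.69) for IFITM1, 1.70 (1.63 to 1.77) for IFITM3 and 1.14 (1.07 to 1.22) for IFITM2. With GPNA the ratios were 2.81 (2.30 to 3.44), 1.18 (1.13 to 1.24) and 1.04 (0.971 to 1.12). IFITM1 therefore supplied 2.70% of the reads of the 3 genes in control cells, 6.41% under GPNA and 7.89% under BenSer, while the share of IFITM2 went from 30.9% to 27.2% and 22.0%. The 3 genes are close in sequence, so reads could be divided between them in error, which was not tested.

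BST2 encodes tetherin, which holds budding virus at the cell surface. It was barely expressed, at 0.861 and 0.867 CPM in control cells, 2.36 and 2.0 with GPNA, and 1.65 and 2.10 CPM with BenSer, from 40 reads in the control. Here the treated columns overlapped each other and both lay above the control. The ratio was 2.53 (1.75 to 3.73) with GPNA and 2.17 (1.5 to 3.18) with BenSer, and BenSer over GPNA was 0.856 (0.656 to 1.12). The BenSer call was lost without BenSer column 2, where the log2 difference went from 0.62 to 0.51.

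RSAD2 and CMPK2 form a divergent pair on chromosome 2 and encode enzymes of antiviral nucleotide metabolism. RSAD2, or viperin, makes a chain-terminating analogue of CTP, and CMPK2 is a mitochondrial nucleotide kinase. RSAD2 was at 2.54 and 2.12 CPM in untreated cells, 6.40 and 5.23 with GPNA, and 16.7 and 17.2 CPM with BenSer. CMPK2 was at 3.487 and 3.47 CPM in control cells, 8.88 and 9.0 with GPNA, and 16.3 and 14.2 CPM with BenSer. With GPNA the pair had like ratios, 2.49 (1.99 to 3.14) and 2.57 (2.14 to 3.10), whereas with BenSer RSAD2 was at 7.25 (5.94 to 8.92) and CMPK2 at 4.40 (3.72 to 5.23). RSAD2 ranked 2 among all genes compared with BenSer, and 3 in the direct difference of BenSer from GPNA. The annotated genes overlap by 1079 bases on opposite strands, and the strand setting of the counting is not given in the sources used here. The same holds for other listed genes that overlap on the opposite strand, as at IFI6, IFITM1, IFITM3, PARP10, TRIM14, TRIM22, TRIM25, SP110 and ZNFX1, whose part in the counts was not tested.

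Of the ADP-ribosyltransferases and their partner DTX3L, 4 of 5 were called with BenSer and 3 of 5 with GPNA. PARP9 and the ubiquitin ligase DTX3L form a complex and share a start region, with opposite directions of transcription. PARP9 was at 50.1 and 49.9 CPM in untreated cells, 86.1 and 83.6 with GPNA, and 110.8 and 107 CPM with BenSer. DTX3L was at 55.5 and 57.8 CPM in control cells, 80.2 and 82.0 with GPNA, and 126 and 122 CPM with BenSer. Their BenSer ratios were 2.18 (2.08 to 2.29) and 2.19 (2.10 to 2.29), but with GPNA PARP9 was at 1.70 (1.61 to 1.79) and DTX3L at 1.43 (1.36 to 1.5), and these intervals do not overlap. The annotations of the pair overlap by 240 bases.

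PARP14, a large mono-ADP-ribosyltransferase with macrodomains, was at 88.4 and 86.2 CPM in untreated cells, 135 and 136 with GPNA, and 206 and 209 CPM with BenSer, with ratios of 1.55 (1.49 to 1.61) and 2.37 (2.29 to 2.46). PARP10, another mono-ADP-ribosyltransferase, was at 16.8 and 16.3 CPM in control cells, 28.6 and 28.7 with GPNA, and 41.9 and 39.5 CPM with BenSer. Its ratios of 1.73 and 2.46 were the highest of the family members in the group. PARP12, a zinc-finger protein of the same enzyme family, was at 17.3 and 16.8 CPM in untreated cells, 20.8 and 18.3 with GPNA, and 23.5 and 22.9 CPM with BenSer. It was called with neither compound, and its ratios were 1.15 (1.05 to 1.26) and 1.36.

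Of the 4 TRIM genes, 1 was called with BenSer and 0 with GPNA, and their median log2 differences of 0.46 and 0.11 were the lowest of the role groups described here. TRIM21, the cytosolic antibody receptor, was at 11.9 and 12.8 CPM in control cells, 17.2 and 16.6 with GPNA, and 20.4 and 22.8 CPM with BenSer, and was the 1 called, with a ratio of 1.74 (1.58 to 1.92). TRIM14, an adaptor of antiviral signalling, was at 16.2 and 18.2 CPM in untreated cells, 18.8 and 20.4 with GPNA, and 23.3 and 25.3 CPM with BenSer. TRIM25, the ubiquitin ligase that acts on the sensor RIG-I, was at 94.5 and 91.0 CPM in control cells, 97.1 and 95.2 with GPNA, and 114.1 and 114.5 CPM with BenSer. TRIM14 and TRIM25 had BenSer ratios of 1.41 and 1.23 and GPNA ratios of 1.14 and 1.04. TRIM22, a nuclear antiviral factor, was at 3.487 and 2.56 CPM in untreated cells, 2.98 and 3.34 with GPNA, and 4.69 and 4.26 CPM with BenSer. Its GPNA columns fell between the control columns, with a ratio of 1.05 (0.829 to 1.32), and its BenSer ratio was 1.48 (1.21 to 1.83). The BenSer difference of 0.45 became 0.62, past the limit, without control column 1.

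SAMD9 and SAMD9L are adjacent paralogues on chromosome 7, 12032 bases apart, whose products restrict growth and translation. SAMD9 was at 44.6 and 46.4 CPM in control cells, 75.7 and 77.6 with GPNA, and 119 and 112 CPM with BenSer. SAMD9L was at 11.7 and 10.2 CPM in untreated cells, 19.2 and 19.6 with GPNA, and 31.9 and 32.4 CPM with BenSer. The paralogues were called with both compounds, with ratios of 1.69 and 1.77 with GPNA and of 2.54 (2.42 to 2.67) and 2.93 (2.66 to 3.24) with BenSer. Whether reads were shared between them was not tested.

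Among proteins of nuclear bodies and RNA metabolism, 3 of 5 genes were called with BenSer and 1 with GPNA. SP110, a nuclear body protein, was at 8.44 and 6.85 CPM in control cells, 14.1 and 12.9 with GPNA, and 18.2 and 18.8 CPM with BenSer, and was the 1 called with both, with ratios of 1.76 and 2.42. SP100, a constant part of PML bodies, was at 37.2 and 34.9 CPM in untreated cells, 50.2 and 51.6 with GPNA, and 57.6 and 54.9 CPM with BenSer, with ratios of 1.41 and 1.56. ZNFX1, a helicase-like RNA sensor, was at 62.3 and 64.4 CPM in control cells, 71.0 and 72.8 with GPNA, and 104 and 101 CPM with BenSer. Its ratio of 1.62 (1.55 to 1.69) with BenSer and that of 1.14 (1.08 to 1.19) with GPNA had intervals that do not overlap. ISG20, an exonuclease that degrades RNA, was at 9.39 and 9.66 CPM in untreated cells, 11.8 and 13.8 with GPNA, and 13.1 and 11.8 CPM with BenSer, so its treated columns overlapped. TDRD7, a Tudor-domain protein of RNA granules, was at 7.96 and 8.97 CPM in control cells, 11 and 10.0 with GPNA, and 11.7 and 11.1 CPM with BenSer. Neither ISG20 nor TDRD7 was called, and their ratios lay between 1.24 and 1.35 with both compounds.

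The 5 remaining genes were all called with BenSer, and LAMP3 alone with GPNA. LAMP3, a lysosomal membrane protein, was at 9.0 and 8.58 CPM in untreated cells, 15.4 and 15.6 with GPNA, and 20.01 and 21.4 CPM with BenSer. PLSCR1, a membrane scramblase that limits virus entry, was at 29.4 and 29.4 CPM in control cells, 44.3 and 43.1 with GPNA, and 61.7 and 60.5 CPM with BenSer. LGALS3BP, a secreted glycoprotein that binds galectins, was at 54.7 and 54.2 CPM in untreated cells, 68.2 and 67.5 with GPNA, and 89.1 and 90.5 CPM with BenSer. These 3 genes had BenSer ratios of 2.36, 2.08 and 1.65 and GPNA ratios of 1.77, 1.48 and 1.246.

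XAF1, a partner of the apoptosis inhibitor XIAP, was covered by 10 reads in control cells, 42 under GPNA and 98 under BenSer. Its values were 0.258 and 0.173 CPM in control cells, 0.853 and 0.786 with GPNA, and 1.55 and 1.5 CPM with BenSer. The columns were ordered by group, and the ratios of 3.79 (1.87 to 8.48) and 7.08 (3.69 to 15.2) had the widest intervals of the group. EPSTI1, an interferon-inducible gene first found in epithelium next to stroma, was covered by 21, 50 and 81 reads. It was at 0.560 and 0.347 CPM in untreated cells, 1.12 and 0.825 with GPNA, and 1.4 and 1.13 CPM with BenSer, with ratios of 2.15 (1.27 to 3.77) and 2.79 (1.71 to 4.74). Its BenSer difference of 0.64 became 0.55 without BenSer column 1 and 0.54 without control column 2, both below the limit.

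Set directly against each other at their different doses, BenSer and GPNA gave 8 of the 38 genes (21.1%) called higher with BenSer and 0 called lower, against 1.05% and 0.813% of 19056 genes compared. The 8 were RSAD2, IFI6, IFI44L, CMPK2, SAMD9L, IFITM1, PARP14 and DTX3L. Both BenSer columns were above both GPNA columns for 36 of the 38 genes (31.7% of all genes), the exceptions being BST2 and ISG20. The counting interval of the ratio lay above 1 for 33 genes and below 1 for 0, against 21.2% and 20.7% of all genes, and included 1 for NMI, BST2, ISG20, TDRD7 and EPSTI1. The median ratio of BenSer to GPNA was 1.4, from 0.856 for BST2 to 2.91 (2.56 to 3.32) for RSAD2. DTX3L lay just inside the limit (0.61) and SAMD9 just outside (0.58), and SAMD9 passed it without BenSer column 2 (0.63) or GPNA column 2 (0.60), as did IFI35 without BenSer column 2 (0.61).

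Since levels can be compared between genes only per length, the mean CPM in the control was divided by the length of the canonical transcript. IFITM3 stood highest, at 115 CPM per kb, followed by ISG15 at 52.7, IFITM2 at 32.5, IFI6 at 32.0 and LGALS3BP at 24.7 CPM per kb. At the other end were XAF1 at 0.0632, EPSTI1 at 0.146, RSAD2 at 0.684 and HERC5 at 0.799 CPM per kb. Of the abundant genes named here, IFI6 and ISG15 had BenSer ratios of 3.97 and 2.26. IFITM3, LGALS3BP and IFITM2 had 1.70, 1.65 and 1.14. The scarce genes had 7.25 (RSAD2), 7.08 (XAF1), 2.79 (EPSTI1) and 1.76 (HERC5). Whether the ratio goes with the level was not tested.

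Calls in the rest of the families can be set beside the shares over all genes compared. Those were 1.96% higher and 1.58% lower with BenSer, and 0.34% and 0.0637% with GPNA. At such shares few calls fall in lists of this size, and the genes described were chosen with results known, so the contrast is a description. Of 12 other PARP genes, 0 were called higher and 1 lower with BenSer (PARP1, the main DNA damage polymerase of the family, ratio 0.665), and 0 were called with GPNA. Their median log2 differences were 0.18 with BenSer and 0.094 with GPNA. Of 44 other TRIM genes, 2 were called higher (TRIM9 and TRIM31) and 2 lower (TRIM59 and TRIM66) with BenSer, with medians of 0.082 and -0.0094. The 4 other HERC genes had 0 calls and medians of -0.034 and -0.077. Of 4 other genes with IFI names, IFI16 and IFIH1, which are both nucleic acid sensors, were called with BenSer, and IFIH1 with GPNA. None of 5 relatives of SP100 and LAMP3 was called.

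**Figure D5:**
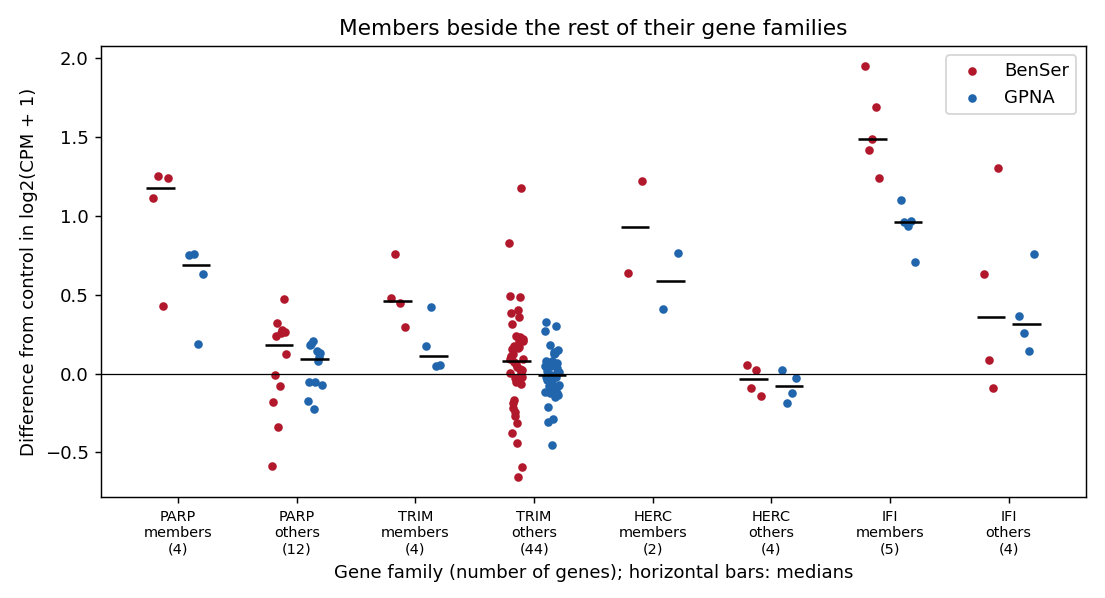
Differences from the control in log2(CPM + 1) (y axis) with BenSer and GPNA for genes of the described group (members) and for the rest of the PARP, TRIM, HERC and IFI families (x axis, number of genes in brackets). Points are genes and bars are medians, which for BenSer are 0.18 in the other PARP genes, 0.082 in the other TRIM genes and -0.034 in the other HERC genes.

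The signalling genes upstream were compared as lists. Of 24 interferon genes searched, IFNE and IFNK were listed, both under 1 CPM in the control, and the others were not analysed here. Of 6 interferon receptor chains, 0 were called with either compound. Among the transcription factors of the response, IRF7 (ratio 1.95), IRF1 (1.68) and STAT2 (1.55) were called higher with BenSer. With GPNA their ratios were 1.36, 0.969 and 1.29, and none of them was called. IRF9, the DNA-binding partner of the STAT complex, had ratios of 1.39 with BenSer and 1.64 with GPNA at 2.03 CPM in the control. Of 8 nucleic acid sensors and related kinases 4 were called with BenSer and 2 with GPNA, and of the 10 IFIT, OAS and MX genes 9 and 6. IFIH1 is counted both here and among the IFI names.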

How the data were processed

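The authors deposited 1 table per treatment, with CPM per gene (reads divided by the library total) in 4 columns per group. Per the submitters' processing notes, reads were mapped with TopHat2 and Bowtie2 to hg19 and counted with HTSeq (0.6.2p2), and DESeq is also named. All values (100%, tolerance 0.001 reads) were whole reads, so reads were recovered. Only columns 1 and 2 match the sample labels, and 8 of 16 value columns (6 distinct) were not used. The deposited log2 fold changes, average expression, p-values and false discovery rates are the authors' comparisons and were not used here.

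The mean CPM of both columns was compared as log2(CPM + 1) over genes whose mean reached 5 reads in 1 of the groups compared, and 1.5-fold was the call rule. Ratios of merged reads had exact conditional Clopper-Pearson 95% intervals, for counting error only. Tests of edgeR (4.0.16), DESeq2 (1.42.0) and limma (3.58.1, on log2(CPM + 1)) in R 4.3.3, with Benjamini-Hochberg adjustment, compared libraries and not treatments. The edgeR quasi-likelihood test on the recovered reads called 7115 genes with BenSer and 3325 with GPNA of 19216. Scripts were tested on simulated data. Transcript lengths and neighbours came from GENCODE v44 lifted to GRCh37.

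All 39 genes were to be named, and other genes from lists only, of which some entries are not reported here. The genes and lists were chosen with earlier results of these data known. Alternatives were other pseudocounts, filters, scaling, fold limits and leaving out each column. Doses come from the legend of the study's figure on these RNA data, not from the sample labels. Python 3.11.15, numpy 2.4.6, pandas 2.3.3, scipy 1.17.1 and matplotlib 3.10.9 were used.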

Additional observations from a re-analysis of the deposited data

How the results depend on the processing

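Among the 38 genes described, the counts called kept within 1.5 times their value and no direction reversed under the other filters, the other pseudocounts and the TMM scaling. With a limit of 2-fold, 4 genes were called with GPNA and 1 in BenSer against GPNA, where a lower limit (0.32 on the log2 scale) called 27. Over all genes the pseudocount mattered more, since at 0.1 CPM 1205 were called higher and 1397 lower with BenSer and 879 and 652 with GPNA, so the shares called higher became 6.35% and 4.67%. The median log2 difference of the 38 genes with BenSer was 1.14 at a pseudocount of 0.1 CPM and 1.12 at 0.5 CPM. At 0.1 CPM it was 0.73 with GPNA and 0.48 for BenSer against GPNA. Leaving out each column gave 28 to 31 genes with BenSer, 19 to 20 with GPNA and 8 to 10 between the compounds, with medians of 1.04 to 1.10, 0.58 to 0.64 and 0.44 to 0.45. Ratios without a pseudocount, chosen after seeing the data, called 31, 22 and 11. TMM scaling turned 371 genes higher and 300 lower with BenSer into 432 and 217. Of the count tests between libraries, edgeR called 7115, 3325 and 6741 of 19216 genes (37.0%, 17.3% and 35.1%). Of these, 38, 36 and 32 were described here. DESeq2 called 4167, 1257 and 3661 genes (21.7%, 6.54% and 19.1%), of which 38, 28 and 28 were described here. With GPNA, edgeR called 1551 higher and 1774 lower, and limma 1244 and 2773. The edgeR test used TMM scaling, whereas limma used CPM of the plain library totals. The cause of the unlike counts was not tested. The replicate number as a block gave 7129, 3358 and 6758 calls, and differences of same-numbered columns correlated at 0.017 to 0.023. Columns of a group differ by little more than read counting, so these correlations cannot show whether the numbers pair the libraries. Depth limits XAF1, EPSTI1 and BST2, with 10, 21 and 40 control reads.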
